A study of Macaca mulatta with 161 samples.

Results

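KLF4, KLF17, ESRRB, TFCP2L1, TBX3 and ZFP42 are 6 transcription factors tied to the naive state of pluripotency. They were taken by name from a table of 16049 gene symbols, in which all 6 have a row, and followed over 161 single inner cells of cultured rhesus monkey (Macaca mulatta) blastocysts. The question set by the series title concerns the pluripotency state of these cells. The cells come from 4 stages, the early blastocyst at about embryonic day 5 (44 cells), the middle blastocyst at about day 5.5 (39 cells), the late blastocyst at about day 6 (52 cells, "later" in the labels) and the hatching blastocyst at about day 7 (26 cells, described in the protocol as out of the zona pellucida). All stages share the same background: oocytes of gonadotropin-stimulated females, fertilisation and culture in HECM-9 with serum, no genetic change or treatment named in the labels, and inner cells recognised by the absence of the dye PKH26 that marks outer cells. The labels do not give the age of the females or the embryo behind a cell, so each stage counts as 1 sample, cells are not replicates, and no test between stages was possible.

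Naive pluripotency is the state of the epiblast (the founder tissue of the fetus) before implantation, and primed pluripotency the state after it. In the mouse, LIF acts through STAT3 on Klf4 and Tfcp2l1, Esrrb is held down by Tcf7l1 and released when GSK3 is inhibited, and Tbx3 acts alongside Nanog, so these factors are often treated as a single circuit that holds the naive state. In human cells and embryos KLF17 marks the naive state, in the place of mouse Klf2. The inner cell mass also gives rise to the primitive endoderm (the precursor of the yolk sac lining), which is marked by SOX17, while NANOG marks the epiblast. In mouse cells Tbx3 has also been tied to extraembryonic endoderm.

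Values are in FPKM, which divides the fragments of a gene by its transcript length and by the size of the library, so that levels can be compared between genes per annotated length. Levels are given as FPKM or as log2(FPKM + 1), a scale that understates the differences of low genes. A factor was counted as detected in a cell at FPKM of at least 1, which stood for a median of 15.7 reads for ESRRB, 32.1 for ZFP42, 35.0 for KLF4, 37.8 for KLF17, 57.1 for TBX3 and 111 for TFCP2L1, and for 4.15 reads of ESRRB in the shallowest cell. The reads behind the FPKM could be recovered and had a median of 11.8 M a cell (M for mega, range 3.14 M to 19.996 M), with stage medians of 11.1 M to 12.8 M. Epiblast markers were found in the cells of every stage (6 to 8 of 9 at FPKM of 1 in at least 50% of the cells), and the 6 granulosa markers were listed at 0 in all middle, late and hatching cells. Trophectoderm markers were present throughout, with stage medians of their summed FPKM from 2072 to 3461, and their part in the results was not tested.

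KLF4, a zinc-finger activator, had the highest mean of the 6 in early cells and was low in most hatching cells. Its FPKM ran from 27.4 to 136 in early cells (median 71.9), from 8.85 to 168 in middle cells (median 77.0), from 0.202 to 187 in late cells (median 30.02) and from 0 to 55.4 in hatching cells (median 2.67). The early and middle ranges lay on top of each other, and the late and hatching ranges reached far below them. The mean log2 level was 6.15 (SD between cells 0.53) in early, 6.07 (0.87) in middle, 4.83 (1.49) in late and 2.12 (1.92) in hatching cells. Only the last step, a difference of -2.71, was larger than the larger SD of the stages it joins.

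ESRRB, an orphan nuclear receptor, had the largest early to hatching difference of the 6. Its FPKM ran from 0.239 to 170 in early cells (median 56.2), from 2.55 to 114 in middle cells (median 55.2), from 0 to 151 in late cells (median 1.56) and from 0 to 25.4 in hatching cells (median 0.0195). It was detected in 43 of 44 early and 39 of 39 middle cells, then in 57.7% of the late cells (30 of 52, exact 95% interval 43.2% to 71.3%) and 2 hatching cells of 26 (7.69%, 0.946% to 25.1%). These intervals cover the counting error of cells only. The late stage was split: 24 late cells stood at FPKM of 5 or more, as did 42 of the early cells, and 15 late cells were below 0.1. The step from middle to late, -3.08 in mean log2 level, exceeded the larger SD of 2.33.

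TFCP2L1, a grainyhead-family factor, was lower in late and hatching cells yet present in nearly all of them. Its FPKM ran from 0.372 to 74.0 in early cells (median 29.2), from 9.83 to 111 in middle cells (median 49.04), from 0.381 to 62.0 in late cells (median 16.6) and from 0.0596 to 42.2 in hatching cells (median 6.51). No cell was listed at 0 for TFCP2L1, and 24 of 26 hatching cells still had it. Its order was middle, early, late, hatching, and no neighbouring stages in that order differed by more than the larger SD between cells.

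TBX3, a T-box factor, had a single broad range in early cells and separate levels in hatching cells. Its FPKM ran from 0.800 to 78.5 in early cells (median 24.8), from 0.0869 to 180 in middle cells (median 60.3), from 0 to 228 in late cells (median 29.4) and from 0 to 189 in hatching cells (median 0.144). The highest TBX3 values of all belonged to late and hatching cells, although the hatching median was near 0. Detection fell short of 50% only in hatching cells, at 9 of 26 (34.6%, 17.2% to 55.7%).

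KLF17 and ZFP42 did not follow this course. KLF17, the zinc-finger factor of primate naive cells, was on in a minority of cells at each stage, with 15 of 44 early, 10 of 39 middle, 15 of 52 late and 12 of 26 hatching cells. In the cells that had KLF17 its median FPKM was 12.1, 15.9, 13.5 and 12.7 in these stages, so the level of a positive cell was alike from early to hatching. ZFP42 (REX1), a zinc-finger factor related to YY1 and a classical marker of undifferentiated cells, was detected in 21 early cells (47.7%, 32.5% to 63.3%) and 29 middle cells (74.4%, 57.9% to 87.0%), and in 26 late (50%, 35.8% to 64.2%) and 19 hatching cells (73.1%, 52.2% to 88.4%). Its highest FPKM was larger at each later stage, at 25.6, 34.2, 42.3 and 54.6. For neither gene did any pair of stages that neighbour in the order of its levels differ by more than the larger SD between cells.

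The order of the factors differed by stage. In early and middle cells KLF4, ESRRB, TFCP2L1 and TBX3 formed an upper group, with mean log2 levels of 4.60 to 6.15 and of 5.29 to 6.07, whose neighbours lay within the larger SD. A gap of 3.09 in early and 2.60 in middle cells, larger than that SD, separated TBX3 from ZFP42, with KLF17 last. In hatching cells the order was ZFP42 (2.996), TFCP2L1 (2.93), KLF4 (2.12), TBX3 (1.83), KLF17 (1.77) and ESRRB (0.47), and no neighbours differed by more than the larger SD, in late cells as well.

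**Figure D1:**
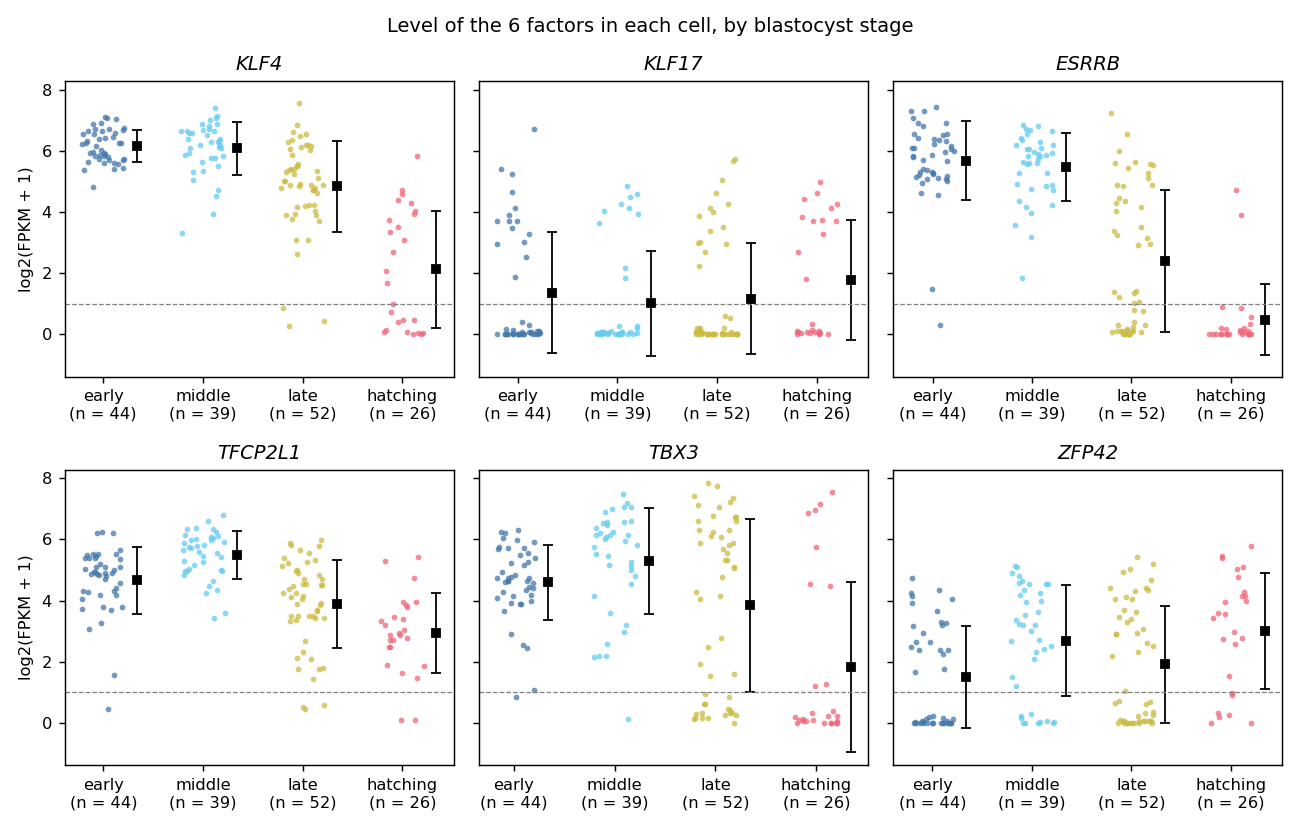
Level of each factor in every cell, as log2(FPKM + 1) on the vertical axis, by stage on the horizontal axis. Points are cells, black squares with bars are the mean and the SD between cells, and the dashed line is FPKM 1. KLF4 and ESRRB start high in early cells (means 6.15 and 5.68) and are low in hatching cells (2.12 and 0.47), while KLF17 and ZFP42 have cells near 0 and cells well above the line at every stage.

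From the early to the hatching stage 4 of the 6 factors were lower by at least 1 on the log2 scale, against 16.2% of all 9781 genes with a mean FPKM of at least 1. They were ESRRB (-5.21), KLF4 (-4.03), TBX3 (-2.77) and TFCP2L1 (-1.73). ZFP42 was higher by 1.48, as were 11.3% of all genes by at least 1, and KLF17 differed by 0.41. The median of the 6 was -2.25 beside -0.12 over all genes (-0.00 when cells were rescaled by median-of-ratios). The value for TBX3 rests on the makeup of the hatching stage: it was -0.25 when FPKM values were averaged before taking the log2, and -0.66 among the lower title numbers alone, the range that holds every hatching cell with SOX17 at the cut defined below.

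The stage differences fell on different steps. From early to middle cells none of the 6 was lower by at least 1 (3.61% of all genes were), and ZFP42 was higher by 1.18 (3.06% of all genes were higher by at least 1). From middle to late, 4 were lower by at least 1, beside 5.82% of all genes: ESRRB (-3.08), TFCP2L1 (-1.60), TBX3 (-1.45) and KLF4 (-1.24). None was higher by at least 1 in that step, and 3.95% of all genes were. From late to hatching, 3 were lower by at least 1, beside 9.87% of all genes: KLF4 (-2.71), TBX3 (-2.01) and ESRRB (-1.92). ZFP42 was higher by 1.09 in that step, as were 7.26% of all genes by at least 1. These steps share the stages between them and are not independent of each other. Against early cells, the hatching cells with NANOG high and SOX17 low differed by -5.14 for ESRRB, -4.38 for TBX3, -3.58 for KLF4, -2.09 for TFCP2L1, 1.67 for ZFP42 and 1.05 for KLF17. There 4 factors were lower and 2 higher by at least 1, beside 14% and 13.7% of all genes.

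**Figure D2:**
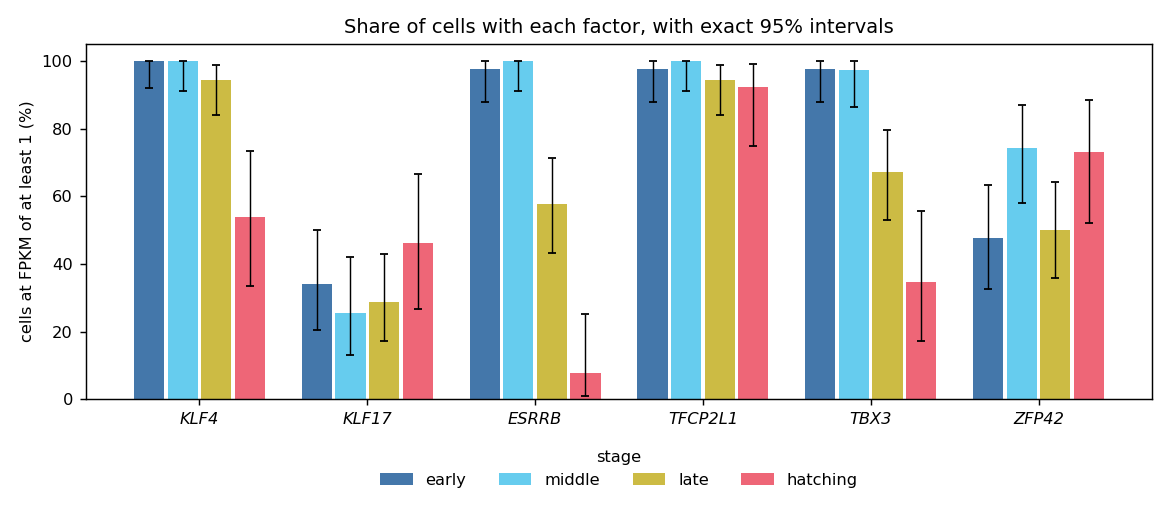
Share of cells with each factor at FPKM of at least 1 (vertical axis, percent) for the 6 factors (horizontal axis) in each stage, with exact 95% intervals of the cell counts as bars. ESRRB goes from 97.7% of early to 7.69% of hatching cells, TFCP2L1 stays at 92.3% or more, and the KLF17 intervals of all stages overlap.

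Late and hatching cells were then ordered by NANOG and SOX17. A level of at least 5 on the log2 scale (FPKM 31) was called high for both genes. The late stage held 27 cells with NANOG alone high ("NANOG-high"), 14 with SOX17 alone high ("SOX17-high"), 6 with both and 5 with neither. The hatching stage held 19 NANOG-high and 7 SOX17-high cells and no others. In the late stage 14 of 52 cells lay within 1 log2 unit of the level of 5 for either gene, and in the hatching stage none did, so the late classes are ranges and not types. The list of 8 primitive endoderm markers includes SOX17, whose own count in SOX17-high cells was fixed by the class. The SOX17-high cells of both stages had all 8 at FPKM of 1 in at least 50% of the cells. The late and hatching NANOG-high cells had 2 and 1. Trophectoderm markers differed with the class as well: 5 of 7 reached that share in SOX17-high cells and 2 of 7 in NANOG-high cells, at both stages. Their summed FPKM had medians of 2198 in SOX17-high and 4251 in NANOG-high late cells, and of 3787 and 2117 in hatching cells (1009 to 5046 and 725 to 7908). Oocyte markers had a summed median of 0 in every class and reached 69.9 in hatching SOX17-high cells. The part of these markers in the class differences below was not tested. NANOG has processed copies in primate genomes, between which reads could be split.

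TBX3 had the largest SOX17-high minus NANOG-high difference of the 6 factors at both stages. In hatching cells its FPKM ran from 0 to 1.39 over the 19 NANOG-high cells (median 0.0547) and from 21.03 to 189 over the 7 SOX17-high cells (median 115). These groups did not overlap, which was so in the same direction for 1.41% of all genes. The mean log2 levels were 0.23 (SD between cells 0.37) and 6.19 (1.27), a difference of 5.96. In late cells TBX3 ran from 0 to 164 over the NANOG-high cells (median 0.525) and from 2.75 to 132 over the SOX17-high cells (median 48.2), a difference of 3.85 between overlapping groups. TBX3 was present in all 14 late SOX17-high cells, all 6 cells with both genes and all 5 with neither, but in 10 of 27 NANOG-high cells (37.0%, 19.4% to 57.6%). It was not limited to cells with SOX17 high, since 43 of 44 early and 38 of 39 middle cells had it. The median SOX17 FPKM of the early and middle stages was 0 and 0.037.

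KLF17 had the opposite placing. It was detected in 14 of 27 late NANOG-high cells (51.9%, 31.9% to 71.3%) and 12 of 19 hatching NANOG-high cells (63.2%, 38.4% to 83.7%), with FPKM up to 52.1 and 30.4. None of the 14 late and 7 hatching SOX17-high cells had it, their highest FPKM being 0.160 and 0.0647. Absence from 14 and from 7 cells allows shares of up to 23.2% and 40.96%. All 15 late and 12 hatching cells with KLF17 had NANOG high, 1 of them together with SOX17. NANOG was high in 43 of 44 early and 39 of 39 middle cells, and so in 14 of 15 early and 10 of 10 middle cells with KLF17. The 1 early cell with NANOG below the cut had KLF17. KLF17 was lower in SOX17-high cells by 2.03 in the late and 2.36 in the hatching stage, and these are differences of means over NANOG-high cells that either had the transcript or lacked it.

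**Figure D3:**
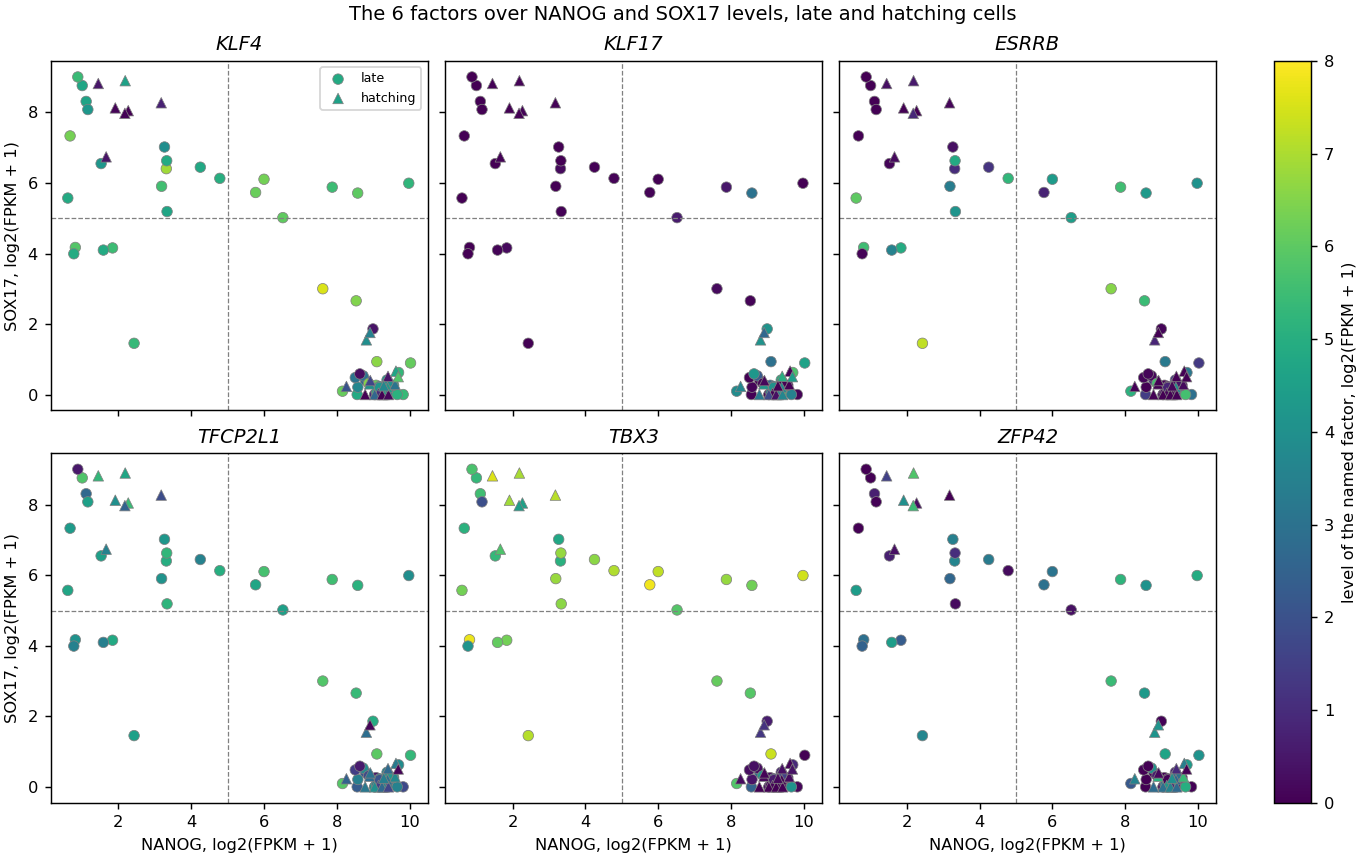
Each late (circle) and hatching (triangle) cell placed by its NANOG level (horizontal axis) and SOX17 level (vertical axis), both as log2(FPKM + 1), and coloured by the level of the named factor on the same scale. Dashed lines mark the level of 5. TBX3 is bright in the SOX17-high cells (hatching median FPKM 115) and dark in most NANOG-high cells, while KLF17 is dark in every cell with SOX17 alone high.

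KLF4 did not differ in the same way at both stages. In late cells it was detected in 24 of 27 NANOG-high and all 14 SOX17-high cells, at mean log2 levels of 4.42 (SD between cells 1.87) and 5.00 (0.81). In hatching cells it was detected in 13 of 19 NANOG-high cells, with FPKM from 0 to 55.4 (median 7.51), and in 1 of 7 SOX17-high cells, with FPKM from 0 to 23.1 (median 0.326). The difference of SOX17-high minus NANOG-high cells was 0.58 in the late stage and -1.67 in the hatching stage. Whether the stages differ in this respect was not tested. From late to hatching KLF4 differed by -1.85 in NANOG-high cells and by -4.10 in SOX17-high cells. In that SOX17-high comparison 2 factors, KLF4 and ESRRB (-1.58), were lower by at least 1 beside 30.1% of all genes, and ZFP42 (1.03) was higher beside 11.2%. TBX3 differed by 0.56 there, or by 1.14 after median-of-ratios scaling. The shifts over all genes differed as well, with medians of -0.03 and -0.40, or -0.01 and -0.10 when cells were rescaled by median-of-ratios.

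TFCP2L1 was present in both kinds of cells. Its median FPKM was 10.3 in late NANOG-high and 21.6 in late SOX17-high cells, and 6.27 and 14.6 in the hatching stage, where it ran from 0.0596 to 14.4 and from 2.60 to 42.2. The differences were 0.81 and 1.31, with overlapping groups at both stages. ESRRB was found in 14 of 27 late NANOG-high and 7 of 14 late SOX17-high cells (51.9% and 50.0%), and the only 2 hatching cells with it were NANOG-high. ZFP42 was found in 10 of 27 late NANOG-high and 6 of 14 late SOX17-high cells (37.0% and 42.9%), then in 15 of 19 and 4 of 7 hatching cells (78.9% and 57.1%). Within NANOG-high cells ZFP42 was higher by 1.61 in hatching than in late cells, while KLF4 (-1.85), TBX3 (-1.56) and ESRRB (-1.44) were lower. Lower by at least 1 were 7.72% of all genes in that comparison and higher 8.68%. The late and hatching means of NANOG-high cells also went with the title numbers, divided into ranges below. In the lower numbers they were 4.68 and 4.44 for KLF4, and 0.46 and 2.86 for ZFP42. In the upper numbers they were 4.45 and 1.90 for KLF4, and 2.40 and 3.30 for ZFP42. TBX3 and ESRRB had lower hatching means in both ranges.

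Read together over the classes, 1 factor of 6 was higher by at least 1 in late SOX17-high cells (TBX3) and 1 lower (KLF17), beside 9.77% and 10.2% of all genes. In the hatching stage 2 were higher (TBX3 and TFCP2L1) and 2 lower (KLF17 and KLF4), beside 14.2% and 33.7% of all genes. The hatching SOX17-high cells had fewer reads, a median of 9.64 M against 13.1 M, and their median number of genes at FPKM of 1 was 5680, beside 6940. The median over all genes was -0.45 there, and -0.15 after median-of-ratios scaling, which put 20.6% of all genes higher and 25.4% lower by at least 1. Under that scaling TBX3 differed by 6.39, TFCP2L1 by 1.83, KLF4 by -1.44 and KLF17 by -2.24. The part of depth in these values was not tested beyond that scaling.

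**Figure D4:**
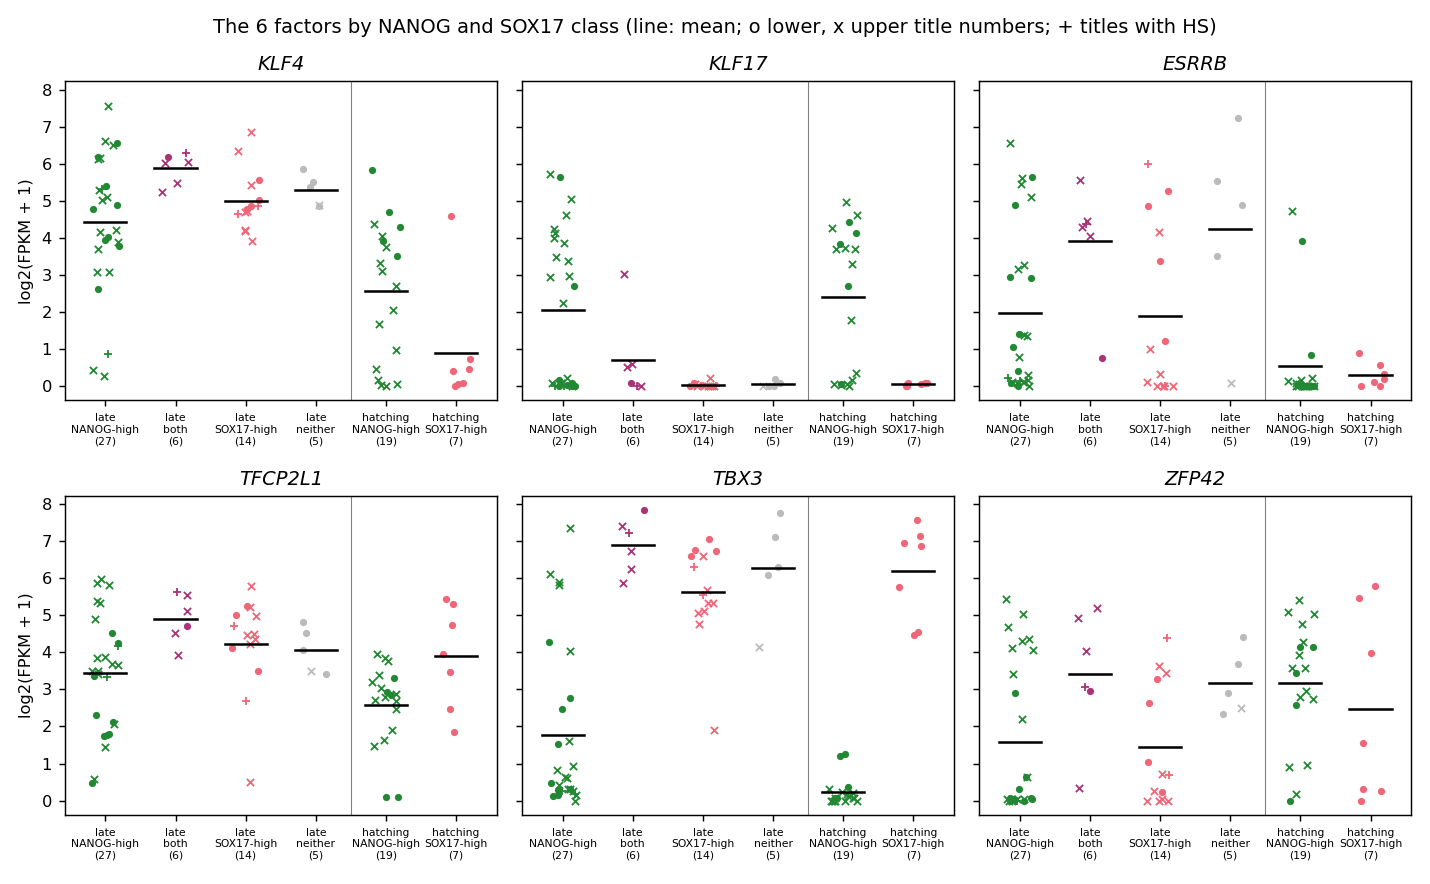
Level of each factor (vertical axis, log2(FPKM + 1)) in late and hatching cells by NANOG and SOX17 class (horizontal axis, number of cells in brackets). Each symbol is a cell, its shape gives the range of its title number, and black lines are class means. TBX3 has hatching means of 0.23 in NANOG-high and 6.19 in SOX17-high cells, and a single SOX17-high hatching cell has KLF4.

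The 6 late cells with both genes high had a median of 5 of the 6 factors, as did the 5 cells with neither and the early and middle cells. In the cells with both KLF4 ran from 36.6 to 77.1 FPKM, TFCP2L1 from 14.3 to 48.8 and TBX3 from 57.6 to 228, and each was above its median in the NANOG-high cells (26.2, 10.3 and 0.525). ESRRB stood at 15.5 to 45.98 in 5 of them and at 0.691 in the sixth. Against late NANOG-high cells 5 of the 6 factors were higher by at least 1, beside 10.9% of all genes: TBX3 (5.11), ESRRB (1.94), ZFP42 (1.85), TFCP2L1 (1.48) and KLF4 (1.45). KLF17 was lower by 1.36, as were 9.72% of all genes by at least 1. The 5 late cells with neither gene high also had KLF4 (27.99 to 56.5 FPKM), TFCP2L1 (9.74 to 27.5), TBX3 (16.6 to 216) and ZFP42 (4.03 to 20.4) in every cell, and no KLF17. The protocol describes the picking of single cells, and no caller of doublets was applied here. The cells with both genes had a median of 11.8 M reads and 6965 genes, beside 10.98 M and 7034 in NANOG-high and 10.96 M and 6855 in SOX17-high cells. The summed FPKM of the blood markers with a row (CD68, CD14 and HBB, the last at 0) had a median of 15.8 in the cells with both genes (0.449 to 30.5) and of 0 in NANOG-high (up to 21.7) and SOX17-high cells (up to 21.01), and its part was not tested.

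The number of factors detected in a cell differed by stage. The median was 5 of 6 in early and in middle cells, 4 in late and 3 in hatching cells. KLF4, ESRRB, TFCP2L1 and TBX3 were found together in 42 of 44 early cells (95.5%, 84.5% to 99.4%) and 38 of 39 middle cells (97.4%, 86.5% to 99.9%). The 4 were together in 24 of 52 late cells (46.2%, 32.2% to 60.5%) and in none of 26 hatching cells, which allows a share of up to 13.2%. No hatching cell held all 6, and 7 early, 9 middle and 4 late cells did. Late NANOG-high cells ranged from 1 to 6 factors, the widest range of any class, and 8 of 27 held these 4 together.

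Of the cells with KLF17, 14 of 15 early, 10 of 10 middle, 5 of 15 late and 2 of 12 hatching cells also had TBX3. TBX3 was found in 97.7%, 97.4%, 67.3% and 34.6% of all cells of these stages, so that early and middle cells with KLF17 could hardly lack it. Hatching cells had KLF17 alone in 10, TBX3 alone in 7, both in 2 and neither in 7 of 26 cells. This pairing was chosen after its values were seen.

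Across the 52 late cells 14 of the 15 pairs among the 6 factors had a positive Spearman's rho, with a median of 0.44, beside a median of 0.003 over all pairs of 9770 genes (50.7% positive). In early cells 6 of 15 pairs were positive (median -0.02), in middle cells 13 (0.10) and in hatching cells 7 (-0.01). KLF17 had late values of 0.17 with ZFP42, 0.15 with ESRRB, 0.09 with KLF4, 0.04 with TFCP2L1 and -0.25 with TBX3. The 10 late pairs without KLF17, a subset chosen after the values were seen, ran from 0.35 (ESRRB with TFCP2L1) to 0.55 (ESRRB with ZFP42). The same 10 pairs ran from 0.22 to 0.60 over the 27 late NANOG-high cells, and had medians of 0.34 and 0.51 in the lower and upper late title numbers (18 and 29 cells). Cells of a stage may share library preparation or embryos, which the labels do not give, and these values are descriptions.

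With NANOG and SOX17, TBX3 had rho of -0.55 and 0.64 over late cells and -0.63 and 0.94 over hatching cells. KLF17 had 0.50 and -0.38 over late cells and 0.36 and -0.31 over hatching cells. TFCP2L1 had -0.23 and 0.40, and then -0.34 and 0.24. KLF4 had -0.15 and 0.20 over late cells and 0.43 and 0.06 over hatching cells. In the lower and upper hatching numbers KLF4 was at 0.72 and 0.14 with NANOG, and at -0.46 and 0.35 with SOX17. ESRRB and ZFP42 had pooled values between -0.22 and 0.22, and in late cells these joined opposite signs of the lower and upper title numbers. With NANOG, ESRRB was at -0.49 and 0.36 and ZFP42 at -0.70 and 0.36, and with SOX17 they were at 0.23 and -0.24 and at 0.67 and -0.10. Among the 14 hatching cells of the upper title numbers, in which TBX3 was at most 0.244 and SOX17 at most 0.431 FPKM, TBX3 had rho of 0.90 with SOX17 and 0.03 with NANOG, over values in which neither gene was detected in any cell and each was at 0 in 6. By title range, TBX3 with SOX17 was at 0.82 (lower) and 0.52 (upper) in late cells and 0.93 in the 12 lower hatching cells. KLF17 with NANOG was at 0.07 and 0.74 in late cells and at 0.75 and -0.05 in hatching cells, so that this relation did not hold in every range.

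**Figure D5:**
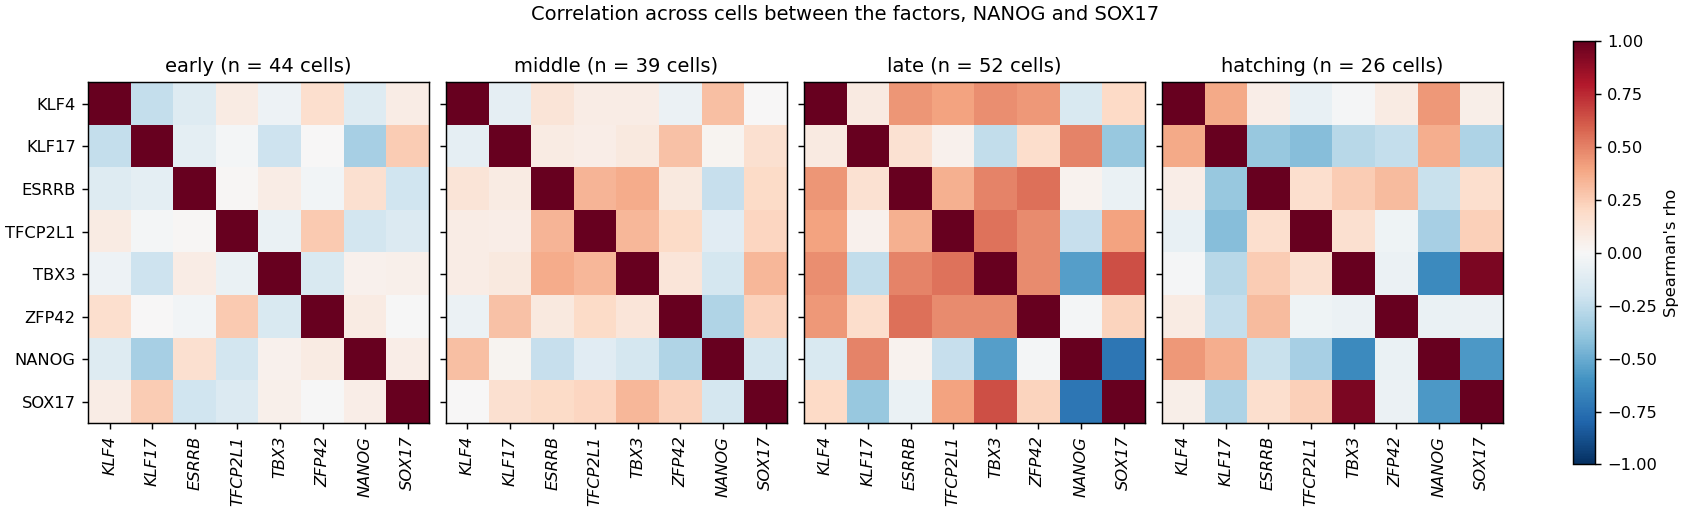
Spearman's rho across the cells of each stage between the 6 factors, NANOG and SOX17 (both axes list the genes, red is positive and blue negative). The pairs among KLF4, ESRRB, TFCP2L1, TBX3 and ZFP42 lie at 0.35 to 0.55 in the late panel and at -0.15 to 0.26 in the early panel, and KLF17 is at -0.25 to 0.17 with them in the late panel.

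The title numbers of each stage were divided here into a lower and an upper range. The labels name no such ranges and do not say what the numbers stand for. In early cells the division falls between consecutive numbers. The share of cells with KLF17 was higher in the upper range of every stage, a difference with no test. It was found in 4 of 25 early cells numbered 1 to 28 (16.0%, 4.54% to 36.1%) and in 11 of 19 numbered 29 to 48 (57.9%, 33.5% to 79.7%). In the late stage it was in 2 of 18 and 13 of 29 cells (11.1% and 44.8%), in the middle stage in 5 of 25 and 5 of 12, and in the hatching stage in 4 of 12 and 8 of 14. Within the NANOG-high cells it was in 2 of 9 and 12 of 16 late cells, but in 4 of 5 and 8 of 14 hatching cells, the opposite order. None of the 7 cells with HS in their titles had it. The upper ranges were also read more deeply, with 15.02 against 9.00 M reads in early cells and 14.2 against 9.29 M in hatching cells. The gap was smaller in middle cells (14.3 against 12.4 M) and late cells (11.7 against 10.8 M). KLF17 had rho of 0.32, 0.23, 0.22 and 0.27 with the reads of a cell in early, middle, late and hatching cells. Other factors had values of larger size, with TFCP2L1 at 0.41 in early and TBX3 at -0.48 in hatching cells. The part of depth was not tested.

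KLF4 in hatching NANOG-high cells also went with the number range. It was detected in 5 of 5 cells numbered 1 to 18, at FPKM from 10.3 to 55.4, and in 8 of 14 cells numbered 22 to 47, at FPKM from 0 to 19.7. The upper minus lower difference was -2.54, larger than the difference of -1.85 between hatching and late NANOG-high cells, and 7.66% of all genes were lower by at least 1 between these ranges (16.1% were higher, none of the 6 factors among them). Against the 5 NANOG-high cells that share their numbers, the 7 hatching SOX17-high cells differed by -3.54 for KLF4, -2.97 for KLF17, 5.59 for TBX3 and 2.04 for TFCP2L1. Among late cells the SOX17-high minus NANOG-high difference kept its sign in both ranges for TBX3 (5.42 and 2.77), KLF17 (-0.93 and -2.91), TFCP2L1 (1.99 and 0.33) and KLF4 (0.37 and 0.60), and had opposite signs for ESRRB (1.53 and -1.39) and ZFP42 (1.34 and -1.39).

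The genes whose levels were most like each factor over all 161 cells were found by Spearman's rho among 9528 genes. For KLF4 they were PDCL3 (0.68), SPIC (0.67), TOP1MT, STOM and TFRC (0.64), and ESRRB came 13th at 0.62. For ESRRB they were ASAP2 (0.74), CLDN4 (0.73), ATP6V0D2, SLC12A3 and STEAP3 (0.69). For TFCP2L1 they were BAK1, CNOT1, TFRC, STEAP3 and LCP1 (0.60 to 0.64), and for TBX3 they included SLC41A2, DRAM1, PPFIBP1 and DUSP6 (0.65 to 0.70). KLF17 and ZFP42 had no close match, the highest being HPDL at 0.41 (then ZIC2, BNIP3, ZYG11A and PARP1) and ACTN1 at 0.36 (then SLC19A1, ZNF461, WDR48 and CBS). Differences between stages enter all of these values.

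Over the 78 late and hatching cells alone, the nearest to TBX3 were HNF4A (0.86), a nuclear receptor on the list of primitive endoderm markers, then BCL2L15, DRAM1, MPEG1 and SMOX (0.82). HNF4A was not limited to late and hatching cells, with mean log2 levels of 5.84 in early, 5.27 in middle, 5.08 in late and 2.18 in hatching cells. SOX17 itself ranked 23rd at 0.76 with TBX3. Those nearest to KLF17 were XPNPEP1 (0.57), ZYG11A, PRDM14 (0.54, a zinc-finger factor of the epiblast), MTHFD1 and KRT7, with NANOG 37th at 0.48. TFCP2L1 was nearest to IL6R (0.62, the receptor of interleukin 6), then ANP32B, HNF4A, PTGFRN and PPFIBP1. KLF4 was nearest to TOP1MT (0.68), MTA2, NIT2, NLRP7 and NEFL, ESRRB to CKMT1B (0.64), MSN, NT5C2, TOP1MT and SNX12, and ZFP42 to TUBB2B (0.54), CKB, ACTN1, P2RY11 and CAMSAP3.

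Near relatives of the factors were compared by a list of 32 genes, of which 30 have a row and 18 passed a mean FPKM of 1. From early to hatching cells 5 were lower by at least 1 and 2 higher, beside 16.2% and 11.3% of all genes. Of the 18, 9 are Kruppel-like factors, which include the 5 lower genes and 1 of the 2 higher ones, KLF7 (1.13). The lower ones were KLF8 (-4.37), KLF3 (-3.34), KLF10 (-3.14), KLF6 (-2.20) and KLF11 (-1.71). ESRRA, the other estrogen-related receptor above the filter, differed by -0.88, TFCP2 by -0.65 and YY1 by -0.50. Of the T-box genes on the list, EOMES (1.47, the other higher gene) and TBX20 (-0.59) passed the filter, and TBX2, the closest relative of TBX3, reached FPKM 1 in 4 of 161 cells. In hatching SOX17-high against NANOG-high cells 3 relatives were higher and 4 lower by at least 1, beside 14.2% and 33.7% of all genes, and 11 lay within 1. The higher ones were KLF6 (2.97), KLF3 (2.78) and KLF5 (2.15), and the lower ones ESRRA (-3.34), TFCP2 (-2.91), UBP1 (-2.14) and GRHL3 (-1.27). In the late stage KLF6 (2.65) and KLF3 (1.53) were higher and KLF8 (-1.26) and TFCP2 (-1.01) lower by at least 1.

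Other naive-state genes were taken from a list of 22, of which 19 have a row and 17 passed the filter. KLF3 and KLF5 are also on the list of near relatives, so the counts of these lists overlap. From early to hatching 4 were lower by at least 1, 2 higher (beside 16.2% and 11.3% of all genes) and 11 within 1, with a median of -0.60. KLF3 (-3.34), the paired-like homeobox gene ARGFX (-3.29), SOX15 (-1.65) and NLRP7 (-1.44) were lower, and GBX2 (2.39) and the growth factor gene FGF4 (1.18) higher. In late SOX17-high against NANOG-high cells 11 of 17 were lower by at least 1 and 1 higher, beside 10.2% and 9.77% of all genes, with a median of -2.72. The median of the 6 factors was 0.25. KHDC3L (-6.83), PRDM14 (-6.12), SOX15 (-5.40) and TFAP2C (-3.79) were the lowest, and KLF3 (1.53) was the member that was higher. In the hatching stage 11 were lower and 2 higher, beside 33.7% and 14.2% of all genes, the medians were -2.40 and -0.47, and KHDC3L (-7.33) was again the lowest. No test of the difference between the lists was made.

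The genes that feed into these factors in the mouse were listed as 11 upstream regulators, all with a row and above the filter. From early to hatching STAT3 (-1.75) and IL6ST (-1.06), the signal transducer of the LIF receptor complex, were lower and LIFR was higher by 1.65, with 8 members within 1, shares of 11 that lie near the 16.2% and 11.3% of all genes. STAT3 had a mean log2 level of 5.31 in early, 5.85 in middle, 3.72 in late and 3.56 in hatching cells. In hatching SOX17-high against NANOG-high cells LIFR (5.27), IL6ST (1.63), SOCS3 (1.53) and JAK1 (1.28) were higher and STAT3 (-3.07) and TCF7L1 (-1.70), the repressor of Esrrb in mouse cells, lower, beside 14.2% and 33.7% of all genes. In the late stage LIFR (1.93), IL6ST (1.23) and JAK2 (1.01) were higher and TCF7L1 (-1.996) lower, beside 9.77% and 10.2% of all genes, and STAT3 differed by -0.33. Of 11 primed-state genes above the filter, 8 were higher by at least 1 in hatching than in early cells (11.3% of all genes were), among them ZIC2 (3.82) and LIN28B (2.85), and OTX2 (-3.52) was lower.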

How the data were processed

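The deposited table holds FPKM values, which the authors computed for 16049 gene symbols in 161 cells, 1 library per cell. Per the submitters' processing notes, the tools include HTSeq, DESeq2, FastQC and TopHat2 2.1.0, whose roles are not stated there. Build and annotation: not given in the sources used here. All columns matched a title, and 0 cells had identical values.

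The stage named in each label set the groups. With 1 sample per stage no test was made. The 6 genes, the lists, the number ranges and the NANOG and SOX17 comparison were chosen with earlier results of these data known. Differences are means over cells of log2(FPKM + 1), with a pseudocount of 1. Background shares use the 9781 genes with mean FPKM of at least 1. Shares of cells have exact Clopper-Pearson 95% intervals. Low FPKM values come in steps, from which the value of 1 read was recovered for 13856 of 13857 genes above 0 in 2 or more cells (99.99% of values whole within 0.05 reads). Number ranges leave out the 7 cells titled HS.

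Named genes are the 6 factors, NANOG, SOX17, list members (up to 4 in a paragraph, those with the largest difference, with some others added after their values were seen) and the 5 genes most like each factor at FPKM of 1 in 20 or more cells. Some genes that this rule would name are not reported here. Python 3.11.15, pandas 2.3.3, numpy 2.4.6, scipy 1.17.1 and matplotlib 3.10.9 were used. In simulated data (16049 genes, with the cell numbers of the hatching and early stages), both groups were resampled from early cells, gene by gene. Constant shifts were planted in genes with an early mean log2 level of at least 4, which KLF17 and ZFP42 do not reach. All 100 planted shifts of 1 log2 unit and all 100 of 2 came out with the right sign. Of 3270 unchanged genes, 11 differed by at least 1. This setting does not cover genes lost in only a part of the hatching cells. Alternatives were other pseudocounts, scaling, summaries, cuts, filters and subsets of cells.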

Additional observations from a re-analysis of the deposited data

Results flagged for a closer look

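In the small classes of 4 to 10 cells, 18 sets of values were checked for a cell far from the others, and 3 had one. A chance rate of about 1 in 20 such sets would hold only for independent values with a normal spread. Cells of a class are not replicates, and some factors were detected in only a part of the cells of a class. The chance rate for these sets is therefore not known, and 3 of 18 cannot be read as more than chance. Among the 7 hatching SOX17-high cells, 1 cell had KLF4 at a log2 level of 4.59 (FPKM 23.1) while the next had 0.73. The same cell had the highest ZFP42 of the class, at 5.80, and TBX3 at 6.95, inside the class range. Among the 6 late cells with both NANOG and SOX17 high, 1 cell had KLF17 at 3.02 (FPKM 7.09) while the next had 0.59. In the same class another cell had ESRRB at 0.76 (FPKM 0.691) where the others ran from 4.04 to 5.55, and it had the highest TBX3 of the class, at 7.84.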

How the results depend on the processing

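No paired analysis was possible because the numbers in the titles name single cells and no embryo, and no result comes from a test. Of 162 recomputed differences, 149 moved by less than the SD between cells, and no difference of at least 1 changed sign. That SD is the spread of cells and not the error of a difference, so large moves can fall within it. In the lower numbers TBX3 was at -0.66 in place of -2.77 for hatching minus early, a move within it. The late ESRRB class difference of -0.09 was at 1.53 in the lower and -1.39 in the upper numbers, also within it. Some of the 149 could not move: no early or hatching cell is titled HS, so leaving out HS cells changed no hatching minus early or hatching class value. The classes of the deposited FPKM were kept under the other pseudocounts and the scaling. With a pseudocount of 0.1 ESRRB was at -7.67 for hatching minus early, and for SOX17-high minus NANOG-high cells KLF17 was at -3.68 (late) and -4.22 (hatching) and TBX3 at 8.46 (hatching). With a pseudocount of 10 KLF4 and ESRRB were at -2.34 and -2.55 for hatching minus early, late TBX3 at 1.98, hatching KLF17 at -0.77 and hatching TBX3 at 3.06. That setting left 0 factors higher from early to hatching, 0 lower by class in either stage and 1 higher in the hatching classes, and the log2 of a larger sum shrinks low genes by construction. With the log2 of the mean FPKM, TBX3 was at -0.25 for hatching minus early and ESRRB at -1.32 for the hatching classes. With the median over cells ZFP42 was at 3.31 for hatching minus early. With the lower title numbers alone, 4 factors were higher and 0 lower in late SOX17-high cells, and KLF4 was at -3.54 for the hatching classes. With the upper numbers alone, 3 were lower in late SOX17-high cells, as with a cut of 7. The upper hatching numbers hold no SOX17-high cell, so no class difference could be given. There 4 larger correlations changed sign, to -0.055 (KLF17 with NANOG), 0.11 (KLF17 with SOX17), 0.029 (TFCP2L1 with NANOG) and 0.025 (TBX3 with NANOG). Of the other recomputed correlations, 32 moved and 84 stayed close to their values. Of the counts of factors 8 moved and 40 stayed close, and of the shares of all genes 18 moved and 28 stayed close. For the other moves the cause was not tested. Without the filter on low values the share of all genes lower by at least 1 from early to hatching was 9.87% in place of 16.2%. The number of embryos behind the cells is not known, which limits every stage value.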
